A study of Mus musculus with 9 samples.

Results

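The genes described here are 10 transcription factors of the primitive streak. They were chosen by name from the 54532 Ensembl genes of a count table. Of these, 4 are factors of the anterior streak (Foxa2, Gsc, Lhx1 and Hhex), 5 are factors of the posterior streak (T, Evx1, Mixl1, Mesp1 and Cdx1), and Eomes belongs to neither side. Each name matched 1 row. RNA was measured in 9 libraries of mouse stem cells of the strain Sv129 x GOF/GFP F1, 3 from each of 3 cell types. AFSCs are cells like epiblast stem cells, grown out of blastocysts in Activin A and bFGF and collected at passages 15 to 20. ALSCs (passages 20 to 25) and ABSCs (passages 25 to 30) were both made from AFSCs by more than 5 passages in a changed medium. ABSCs, labelled as resembling trophoblast stem cells, received Activin A and BMP4. ALSCs are read here as grown in Activin A and LIF, a recipe that the protocol prints under the name of the AB medium. Activin A was thus present in all 3 groups, passage and cell type cannot be told apart, and the labels do not say how many lines were derived or whether the libraries of a cell type came from separate cultures. P-values therefore measure the spread between these libraries, which may be technical.

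The primitive streak is the region of the gastrulating embryo where epiblast cells leave the epithelium to form mesoderm and endoderm. WNT and Nodal signals induce it, and Activin, which signals through the receptors of Nodal, is used in its place in culture. BMP signals from the extraembryonic tissue favour the posterior streak, which gives extraembryonic and ventral mesoderm, whereas strong Nodal signalling favours the anterior streak, which gives definitive endoderm and the axial midline. Cultured epiblast stem cells are known to carry streak transcripts beside those of pluripotency.

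The 9 libraries held 18978651 to 21578737 counts over Ensembl genes, so that 3 counts, the limit set by a count of 0, stood for a level (counts scaled to library size, CPM) of 0.139 to 0.158 before TMM scaling, for counting error only. All 6 epiblast markers looked up (Pou5f1, Nanog, Sox2, Utf1, Fgf5 and Dnmt3b) had group means above 1 CPM in every cell type, with sums of 3829 to 3944 CPM in AFSCs, 3092 to 3465 CPM in ALSCs and 3180 to 3604 CPM in ABSCs. The 7 trophoblast stem cell markers summed to 193 to 260 CPM in AFSCs, 160 to 297 CPM in ALSCs and 159 to 272 CPM in ABSCs, mostly from Eomes and Esrrb. In ABSCs the means were 102 CPM for Esrrb, 8.63 for Tfap2c, 4.44 for Cdx2, 0.890 for Krt7, 0.749 for Gata3 and 0.0332 for Elf5. Those in AFSCs and ALSCs were 102 and 99.9 for Esrrb, 3.78 and 18.7 for Tfap2c, and 0.125 and 0.0856 for Cdx2. Krt7 stood at 2.66 in both, Gata3 at 0.227 and 0.170, and Elf5 at 0.224 and 0.154. The 8 markers of visceral and primitive endoderm summed to 11.0 to 11.4 CPM in AFSCs, 9.87 to 13.6 CPM in ALSCs and 6.22 to 8.25 CPM in ABSCs, with Ttr at 0 in all libraries and Afp at 0 in AFSCs and ALSCs. The 8 fibroblast markers summed to 10.2 to 24.6 CPM over the 9 libraries. Library 1 of each cell type stood apart from libraries 2 and 3. With the cell type in the fit, 34.7% of all genes tested differed between library 1 and the others (edgeR quasi-likelihood test, adjusted p under 0.05).

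The promoters of the 4 members with the largest differences between cell types are shown because these genes separated ABSCs from the other cells. They come from RefSeq (GRCm38.p6), end at the base before the transcription start and are clipped where the count table's gene model begins further upstream. Capitals mark matches to any of 7 motifs searched on both strands.
Evx1 (chr6:52313248-52313497, plus strand): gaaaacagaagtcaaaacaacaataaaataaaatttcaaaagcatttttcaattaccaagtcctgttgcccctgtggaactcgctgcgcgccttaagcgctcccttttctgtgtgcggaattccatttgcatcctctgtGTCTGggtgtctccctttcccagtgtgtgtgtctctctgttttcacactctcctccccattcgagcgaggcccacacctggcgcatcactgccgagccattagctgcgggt
Foxa2 (chr2:148046970-148047219, minus strand): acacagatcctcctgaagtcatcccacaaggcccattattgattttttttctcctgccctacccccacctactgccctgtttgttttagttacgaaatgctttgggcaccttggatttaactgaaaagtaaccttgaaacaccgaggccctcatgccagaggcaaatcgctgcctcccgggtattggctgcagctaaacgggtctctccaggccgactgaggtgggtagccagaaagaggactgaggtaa
Gsc (chr12:104473331-104473486, minus strand): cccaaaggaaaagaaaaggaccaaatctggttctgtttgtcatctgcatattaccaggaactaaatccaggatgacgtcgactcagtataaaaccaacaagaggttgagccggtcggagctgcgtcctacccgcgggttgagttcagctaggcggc
Lhx1 (chr11:84525536-84525784, minus strand): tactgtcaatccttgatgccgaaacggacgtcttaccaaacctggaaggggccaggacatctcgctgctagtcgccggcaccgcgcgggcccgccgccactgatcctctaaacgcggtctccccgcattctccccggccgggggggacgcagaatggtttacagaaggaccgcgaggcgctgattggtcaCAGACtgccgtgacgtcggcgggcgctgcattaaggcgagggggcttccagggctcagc
The motifs were a T-box core site (GGTGTGA), a TCF/LEF site (CTTTGAT), a FOXH1 site (ATCCACA), a SMAD box (CAGAC), a GC-rich SMAD site (GGCGCC), a bicoid-type homeodomain site (TAATCC) and a forkhead site (TNTTTAC). The windows of Evx1 and Lhx1 each held 1 SMAD box, a motif found in 42.2% of 32851 promoter windows of 250 bases. No motif of the 7 occurred in the windows of Foxa2 and Gsc, nor in those of T and Eomes, which says only that these letters are not there. Of the 3 Foxa2 entries only the one farthest upstream was searched. Mesp1 had a SMAD box and a TCF/LEF site (3.21% of windows), and Hhex a GC-rich SMAD site (9.59%). These matches lay in the stretch that clipping removes. Of the 10 members, 8 matched an entry of the promoter table. Their windows ranged in GC content from 46.4% for Eomes to 76.0% for Hhex, with 49.6% for Evx1, 50.8% for Foxa2 and a median of 52.4% over all promoters.

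Of the 10 members, 8 passed the filter on low counts and were tested among 16178 genes, while Mesp1 and Cdx1 did not pass. Per kilobase of gene model, the scale used here to compare genes with each other, T and Eomes had the highest levels in AFSCs, at 30.6 ± 1.88 and 29.3 ± 9.15 CPM per kilobase (SD, n = 3 throughout). Gsc, Foxa2 and Hhex followed at 6.96 ± 0.701, 6.52 ± 0.488 and 4.47 ± 0.450, then Mixl1 at 2.23 ± 0.149 and Lhx1 at 1.94 ± 0.966, with Evx1 at 0.396 ± 0.0693. AFSCs thus held transcripts of factors listed on both sides of the streak, but those of the posterior side were mostly T. Mesp1 and Cdx1 had 5 counts each over the 3 AFSC libraries. In ABSCs the order was T at 54.2 ± 19.9, Eomes at 28.0 ± 16.5 and Evx1 at 17.0 ± 7.25 CPM per kilobase, with Hhex at 4.33 ± 0.632 as the anterior factor with the highest level. The other anterior factors were each below 1 CPM per kilobase there. In ALSCs T stood at 58.8 ± 2.68, Eomes at 30.6 ± 15.4 and Gsc at 14.1 ± 2.05 CPM per kilobase.

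**Figure D1:**
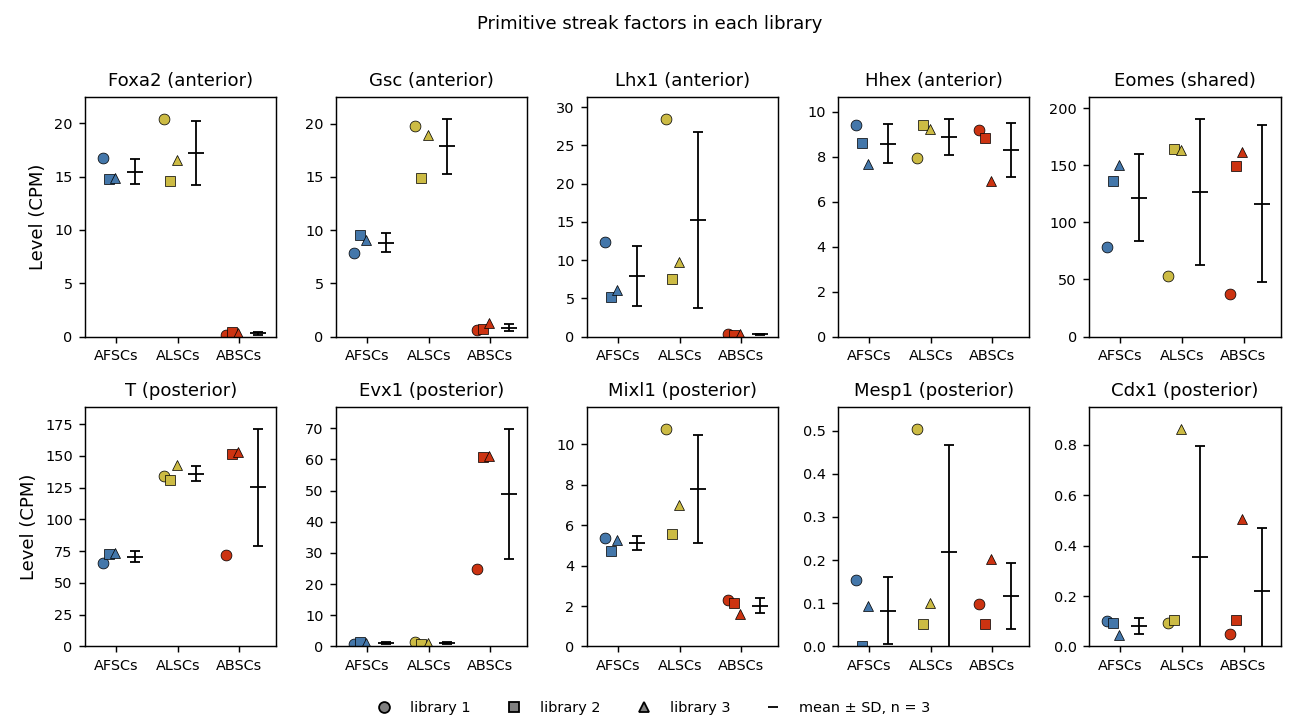
Level of each of the 10 streak factors in CPM (vertical axes, linear, from 0) in the 9 libraries, by cell type; symbols give the library number and bars the mean ± SD of 3 libraries. Foxa2, Gsc and Lhx1 are near 0 in all 3 ABSC libraries, Evx1 is high there alone, and Eomes is lowest in library 1 of each cell type.

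The comparison of ABSCs with AFSCs asks how the streak factors differ where BMP4 stands in place of bFGF. The test called 5 of the 8 members tested, against 7.98% of all genes: Evx1 rose, and Foxa2, Gsc, Lhx1 and Mixl1 fell. The 3 libraries of each group did not overlap for these 5 genes, a state shared by 27.4% of all genes tested. On the anterior side, 3 of 4 fell (4.0% of all genes fell), with a median log2 change of -4.11 over the side, while that over all genes was within 0.01 of 0. On the posterior side, 1 of the 3 tested rose (3.98% of all genes rose) and 1 fell. With the library number as a block the calls were the same 5, where 9.58% of all genes were higher and 9.78% lower. In bulk RNA, fewer cells that carry a transcript and less of it per cell cannot be told apart.

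Foxa2 encodes a forkhead factor of the anterior streak, endoderm and notochord (chromosome 2, 148042877 to 148046969, minus strand). Its level was 16.8, 14.7 and 14.8 CPM in AFSCs 1 to 3 and 0.147, 0.418 and 0.354 CPM in ABSCs 1 to 3, the latter from 18 counts over 3 libraries. The difference was a log2 fold change of -5.64 (SE 0.27, 95% interval -6.23 to -5.04, edgeR adjusted p = 4.19e-06). No ABSC library came near the lowest AFSC library, and ABSCs 1 was at 3 counts. Gsc encodes goosecoid, the homeodomain factor of the organizer (chromosome 12, 104471209 to 104473330, minus strand). It stood at 7.82, 9.53 and 9.10 CPM in AFSCs and 0.589, 0.679 and 1.26 CPM in ABSCs. The change of -3.38 (SE 0.26, edgeR adjusted p = 4.95e-05) left more Gsc than Foxa2 in each ABSC library, on the scale per kilobase. Lhx1 encodes a LIM homeodomain factor needed for head organizer function (chromosome 11, 84518284 to 84525535, minus strand). Its level was 12.4, 5.14 and 6.15 CPM in AFSCs, with library 1 highest, and 0.294, 0.209 and 0.303 CPM in ABSCs. It fell by 4.84 on the log2 scale (SE 0.71, edgeR adjusted p = 0.00279). Beside these falls, the endoderm markers summed lower in ABSCs (6.22 to 8.25 CPM) than in AFSCs (11.0 to 11.4 CPM), with Ttr at 0 in both groups. Of the 4 markers tested, 0 were called, and 1 was lower with the replicate block, as were 9.78% of all genes. The means of Sox7 and Afp were higher in ABSCs. The part of these markers in the result was not tested.

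Hhex, a homeodomain factor of the anterior definitive and visceral endoderm and of the early liver, was the anterior factor that did not follow (chromosome 19, 37434810 to 37440731, plus strand). It stood at 9.42, 8.63 and 7.70 CPM in AFSCs, 7.94, 9.44 and 9.26 CPM in ALSCs, and 9.17, 8.83 and 6.92 CPM in ABSCs. The ranges overlapped in all 3 comparisons. The log2 change of ABSCs against AFSCs was -0.05 with a 95% interval of -0.39 to 0.30 (edgeR adjusted p = 0.929), an interval that does not reach the change of any of the other 3 anterior factors.

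Evx1, a homeobox gene of the posterior streak that is known to respond to BMP (chromosome 6, 52313498 to 52318378, plus strand), differed most among the posterior factors. Its level was 0.926, 1.32 and 1.17 CPM in AFSCs and 24.9, 60.9 and 61.2 CPM in ABSCs. The log2 fold change was 5.41 (SE 0.38, 95% interval 4.56 to 6.26, edgeR adjusted p = 3.57e-05), or 42.6-fold. ABSCs 1 was below the other ABSC libraries, but far above every AFSC library. The gene overlaps 1335 bases of Evx1os, which is read from the opposite strand, and the library kit does not mark the strand. Evx1os stood at 0.206, 0.472 and 0.422 CPM in AFSCs and 10.9, 19.0 and 21.6 CPM in ABSCs (log2 fold change 5.51, SE 0.41, edgeR adjusted p = 4.17e-05). Reads of the shared stretch cannot be assigned to either gene.

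Mixl1, a paired-type homeobox gene expressed along the streak and needed for endoderm formation (chromosome 1, 180693043 to 180697034, minus strand), moved opposite to Evx1. It stood at 5.35, 4.72 and 5.26 CPM in AFSCs and 2.31, 2.14 and 1.62 CPM in ABSCs (log2 fold change -1.33, SE 0.26, edgeR adjusted p = 0.0119). Without ABSCs 3 the change was -1.19 and the call was lost (edgeR adjusted p = 0.0571). Mixl1 was thus placed with the posterior factors by its label, and was lower in ABSCs as were Foxa2, Gsc and Lhx1.

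T encodes Brachyury, the T-box factor that marks the whole streak and is needed for mesoderm (chromosome 17, 8434423 to 8442496, plus strand). Its level was 65.8, 72.7 and 73.9 CPM in AFSCs and 72.1, 151 and 153 CPM in ABSCs. Library 1 of ABSCs lay within the AFSC range, whereas libraries 2 and 3 lay above all AFSC libraries. The difference did not pass (log2 fold change 0.82, 95% interval 0.31 to 1.34, edgeR adjusted p = 0.0587), whereas DESeq2 called it on the same 9 libraries (0.83, adjusted p = 0.00518). It did not pass with limma-voom (0.74, adjusted p = 0.112) or with the library number as a block (0.78, edgeR adjusted p = 0.125). Nor did it without a filter on low counts (0.83, edgeR adjusted p = 0.289). Without ABSCs 1 it was 1.11 and passed (edgeR adjusted p = 1.41e-05), and it was 1.06 when library 1 of every cell type was left out (edgeR adjusted p = 2.07e-14), where 28.5% of all genes were called.

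Eomes, a T-box factor of the streak that is needed for definitive endoderm and also for trophoblast (chromosome 9, 118478212 to 118486132, plus strand), varied more within cell types than between them. It stood at 78.7, 136 and 150 CPM in AFSCs, 53.2, 165 and 163 CPM in ALSCs, and 37.4, 150 and 162 CPM in ABSCs. Library 1 was lowest in each. ABSCs differed from AFSCs by -0.07 on the log2 scale, with a 95% interval of -1.32 to 1.18 that leaves room for more than a doubling either way (edgeR adjusted p = 0.973). The gene overlaps 574 bases of the antisense row Gm33460, which had 15 to 37 counts per library. As with Evx1, reads of the shared stretch cannot be assigned to either gene, and their part in the Eomes counts was not tested.

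Mesp1, a bHLH factor of nascent cardiac mesoderm, and Cdx1, a caudal-type factor of the posterior body axis, were near the limit of detection. Mesp1 had 3, 0 and 2 counts in AFSCs, 11, 1 and 2 in ALSCs, and 2, 1 and 4 in ABSCs. Cdx1 had 2, 2 and 1 counts in AFSCs, 2, 2 and 17 in ALSCs, and 1, 2 and 10 in ABSCs. The highest count of Mesp1 came from ALSCs 1 and that of Cdx1 from ALSCs 3. Both were tested without the filter, and neither passed in any comparison between cell types (edgeR adjusted p = 0.413 to 0.928), the largest change being 2.04 for Cdx1 in ALSCs against AFSCs.

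**Figure D2:**
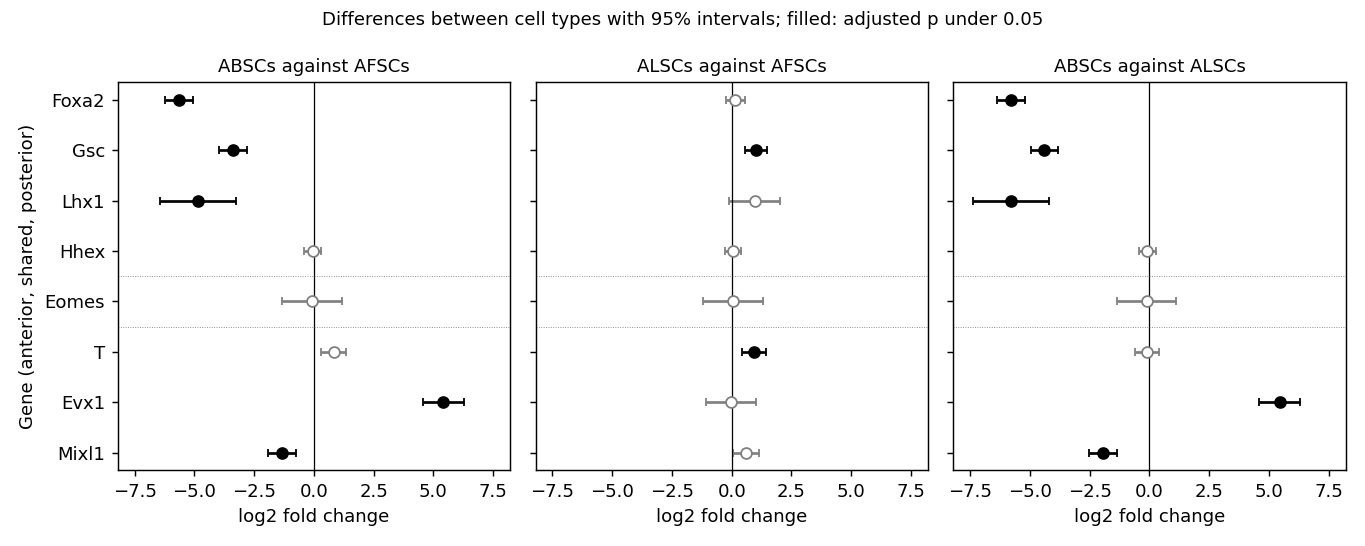
Log2 fold change (horizontal axes) of the 8 members tested in the 3 comparisons, with 95% intervals of the edgeR fit; filled points passed an adjusted p of 0.05 and dotted lines separate anterior factors, Eomes and posterior factors. The pattern of ABSCs against AFSCs is close to that of ABSCs against ALSCs in size for Foxa2 (-5.64 and -5.79) and Evx1 (5.41 and 5.45), and both use the same ABSC libraries.

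The comparison of ALSCs with AFSCs asks how the factors differ where LIF stands in place of bFGF. Of 8 members tested 2 were called, against 7.04% of all genes (3.54% rose and 3.50% fell), and both rose: T and Gsc, from the posterior and the anterior side. T stood at 134, 131 and 143 CPM in ALSCs, and every value was above the highest AFSC library (log2 fold change 0.94, SE 0.23, edgeR adjusted p = 0.0375). The call of T was lost with library number as a block (edgeR adjusted p = 0.0708), without any 1 of the AFSC or ALSC libraries (0.0660 to 0.121) and without a filter on low counts (0.205). It held in 11 of 19 alternatives, among them DESeq2 (adjusted p = 0.00119) and, narrowly, limma-voom (adjusted p = 0.0479). Gsc stood at 19.8, 14.9 and 18.9 CPM in ALSCs, again above all AFSC libraries (1.02, SE 0.20, edgeR adjusted p = 0.0167). The call of Gsc was lost without AFSCs 1, 2 or 3 or ALSCs 3 (edgeR adjusted p = 0.0557 to 0.0758), with changes between 0.94 and 1.13 over all single libraries left out.

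The other anterior factors did not pass. Lhx1 was at 28.5 CPM in ALSCs 1 but 7.51 and 9.77 CPM in ALSCs 2 and 3, and did not pass (0.96, 95% interval -0.12 to 2.04, edgeR adjusted p = 0.293). With the library number as a block, in which 22.2% of all genes were called, it was 0.84 and passed (edgeR adjusted p = 0.00141). It also passed with library 1 of every cell type left out (0.61, edgeR adjusted p = 0.00732), where 25.4% of all genes did. Foxa2, at 20.4, 14.5 and 16.6 CPM in ALSCs, overlapped AFSCs and did not pass (0.16, 95% interval -0.24 to 0.55). On the posterior side, Mixl1 stood at 10.8, 5.58 and 7.02 CPM in ALSCs, above AFSCs in each library, and did not pass (0.61, edgeR adjusted p = 0.177) except with the block (0.58, edgeR adjusted p = 0.0344). Evx1 was at 1.38, 0.834 and 1.12 CPM in ALSCs, which overlapped AFSCs (-0.03, 95% interval -1.07 to 1.00). Eomes did not pass (0.06, edgeR adjusted p = 0.971), but with library 1 of every cell type left out it was 0.19 and passed (edgeR adjusted p = 0.00892).

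ABSCs and ALSCs, set against each other directly, share Activin A and differ in BMP4 against LIF. Here 5 of 8 members were called, against 11.0% of all genes, and they were the 5 called in ABSCs against AFSCs. The groups did not overlap for these 5, as for 28.9% of all genes. Evx1 was higher in ABSCs by 5.45 (edgeR adjusted p = 2.53e-05; 5.41% of all genes were higher and 5.56% lower). Foxa2 was at -5.79, Lhx1 at -5.79, Gsc at -4.40 and Mixl1 at -1.95 (edgeR adjusted p = 1.51e-06 to 0.00137). T stood at -0.12 (95% interval -0.62 to 0.39, edgeR adjusted p = 0.790). With library 1 of every cell type left out it was 0.16 in the other direction and passed (edgeR adjusted p = 0.0157), where 32.2% of all genes did. The order of the group means thus differed between factors. For Gsc it was ALSCs, AFSCs, ABSCs, and each neighbour passed in the main analysis. The step from AFSCs to ALSCs lost its call in the settings given above. For Foxa2, Lhx1 and Mixl1 the means had the same order, but ALSCs and AFSCs did not differ by the test. For Evx1 ABSCs came first, and AFSCs and ALSCs did not differ by it. For T, ALSCs passed against AFSCs (0.94) and ABSCs did not (0.82). ALSCs and ABSCs did not differ by the direct test, so these calls give no order between them. Tested for a difference of any kind between the cell types, 6 of 8 members were called, all but Eomes and Hhex, against 14.8% of all genes. The count was 5 with the replicate block and without any 1 library other than ABSCs 1. It was also 5 with limma-voom (T at an adjusted p of 0.0527) and without a filter on low counts (T at an edgeR adjusted p of 0.227). With library 1 of every cell type left out it was 7, where 7121 genes were called.

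The sum of the 4 anterior factors per kilobase was 19.0 to 21.2 CPM per kilobase in AFSCs, 24.7 to 35.4 in ALSCs and 4.83 to 5.38 in ABSCs. The sum of the 5 posterior factors was 31.3 to 34.7 in AFSCs, 59.6 to 65.9 in ALSCs, and 40.9, 87.5 and 88.4 in ABSCs 1 to 3. The anterior share of both sums was accordingly 35.3% to 40.4% in AFSCs, 29.3% to 35.8% in ALSCs and 5.18% to 11.6% in ABSCs. These sums describe the members, which were chosen with results known, and carry no test. In ABSCs most of the anterior sum was Hhex (means of 4.33 and 5.19 CPM per kilobase for Hhex and the sum), which did not differ between cell types by the test. T made up most of the posterior sum everywhere. Without T, the posterior sum was 2.57 to 2.84 CPM per kilobase in AFSCs, 2.82 to 5.63 in ALSCs and 9.77 to 22.4 in ABSCs, and Evx1 made up 21.2% to 24.2% of the whole posterior sum in ABSCs against 0.487% to 1.35% in the other libraries.

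**Figure D3:**
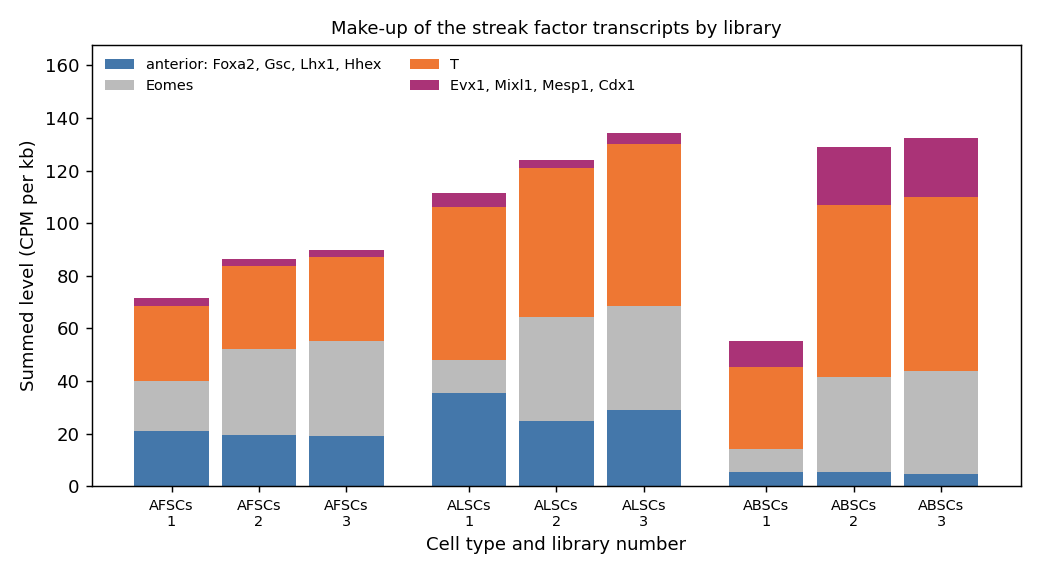
Stacked bars give the summed level of the streak factors in CPM per kilobase (vertical axis, from 0) in each of the 9 libraries: the 4 anterior factors, Eomes, T, and the other 4 posterior factors. The anterior part is 4.83 to 5.38 in ABSCs, where it is mostly Hhex, against 19.0 or more in every other library.

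In the fit with cell type and library number, 3 of 8 members differed between library 1 and the others, a share near the 34.7% of all genes. Lhx1 was higher in library 1 (1.41, SE 0.15, edgeR adjusted p = 9.93e-06; 18.2% of all genes were higher), and Eomes (-1.48, edgeR adjusted p = 0.0145) and Evx1 (-0.95, edgeR adjusted p = 0.0195) were lower (16.4% of all genes). Eomes lost its call without ALSCs (edgeR adjusted p = 0.168), and Evx1 reached 0.06 without ABSCs (edgeR adjusted p = 0.932), and its call was also lost without AFSCs (-1.07, edgeR adjusted p = 0.0780). An interaction of cell type with library 1, chosen after the values were seen and resting on 1 such library per cell type, passed for T, Evx1 and Eomes and for 8.65% of all genes. Lhx1 in library 1 was 2.20 times the mean of libraries 2 and 3 in AFSCs and 3.30 times in ALSCs, while in ABSCs the gene had 4 to 6 counts per library. Mixl1 and Mesp1 also had their highest value in ALSCs 1, and Mixl1 did not pass (0.43, edgeR adjusted p = 0.0546). Eomes in libraries 2 and 3 was 1.82 times its level in library 1 in AFSCs, 3.08 times in ALSCs and 4.17 times in ABSCs. What library number stands for is not in the labels, and its part in the values was not tested beyond these fits.

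**Figure D4:**
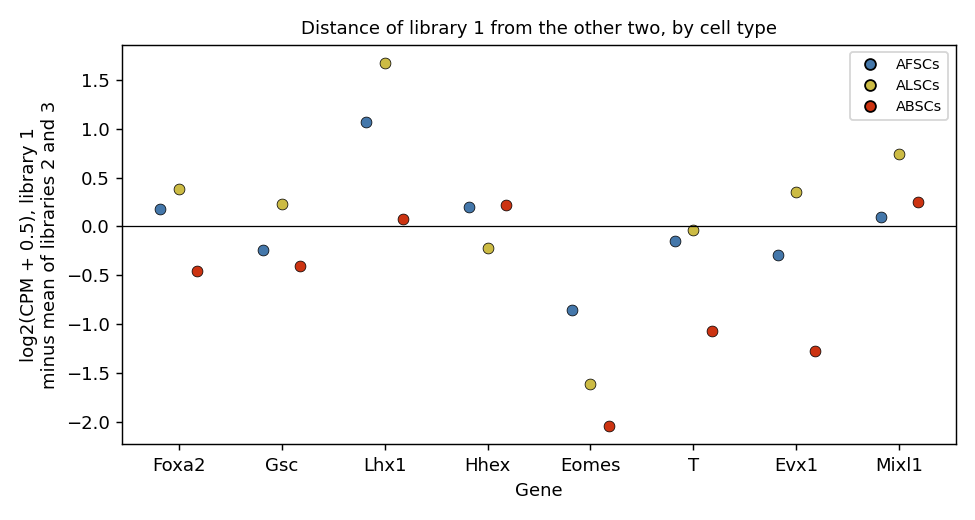
Difference on the log2(CPM + 0.5) scale between library 1 and the mean of libraries 2 and 3 (vertical axis) for the 8 members tested, with 1 point per cell type. Eomes lies below 0 in each cell type (-0.86 to -2.05), Lhx1 lies above 0 in AFSCs and ALSCs (1.08 and 1.68), and T and Evx1 lie far below 0 in ABSCs (-1.07 and -1.28).

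Across the 9 libraries, Foxa2, Gsc, Lhx1 and Mixl1 had similar profiles, with Pearson r of 0.919 to 0.972 between the pairs on log2(CPM + 0.5). Evx1 ran against them (r of -0.972 with Foxa2, -0.935 with Gsc, -0.925 with Lhx1 and -0.893 with Mixl1). These values mostly restate that ABSCs stood apart. Within cell types, after removal of the group means, Evx1 correlated with the opposite sign with Foxa2 (0.782) and Gsc (0.690), and near 0 with Lhx1 (0.0846) and Mixl1 (-0.0265). Foxa2 and Gsc correlated at 0.453 and Gsc and Lhx1 at 0.160, Mixl1 and Lhx1 at 0.794, and T and Evx1 at 0.947. All these correlations are descriptions over 9 libraries that share their groups and numbers. Those of Evx1 within cell types rest mostly on ABSCs, where library 1 was lowest (24.9, 60.9 and 61.2 CPM in libraries 1 to 3). In ABSCs Foxa2 had 3 to 8 counts per library and Gsc 12 to 25, and Evx1 was near 1 CPM in the other cell types. Among 13807 genes compared, the gene most like Lhx1 was Cer1 (r = 0.994), an antagonist of Nodal, BMP and WNT secreted by anterior endoderm. The gene most like Foxa2 was Nmral1 (r = 0.996), that most like Evx1 was Osbpl8 (r = 0.996), that most like Mixl1 was Gpx3 (r = 0.988), and that most like Gsc was Trpm7 (r = 0.989). T was most like the interferon-response genes Ifitm1 (r = 0.988), Psmb8 (r = 0.987) and Oasl2 (r = 0.973), and Eomes most like Pde4d (r = 0.989). Of the 24 genes picked in this way for the 8 members, 1 was also picked by Spearman's rho and 10 after removal of the number means.

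The signals that pattern the streak, and their antagonists, were read as a list of 15 genes, of which 13 were tested. In ABSCs against AFSCs 1 rose and 6 fell, with a median log2 change of -0.59 (3.98% of all genes rose and 4.0% fell). Without library 1 of every cell type 3 were higher and 7 lower, where 14.5% of all genes were higher and 13.9% lower. The Nodal antagonist Lefty1 fell (-3.02), as did its relative Lefty2 (-1.29), the WNT antagonist Dkk1 (-2.47), the BMP antagonist Chrd (-2.32) and Wnt8a (-2.23; edgeR adjusted p = 0.000373 to 0.0160 over these 5). Cer1 had 255 counts in AFSCs and 3 in ABSCs, a ratio of 81.4 (95% exact interval 27.5 to 397, counting error only), and was called as lower (edgeR adjusted p = 0.00136). Nodal itself, at 152 ± 52.7 CPM against 230 ± 58.5 CPM, was not called, but was with the replicate block (-0.62, edgeR adjusted p = 0.0371). The Nodal co-receptor Tdgf1 rose (0.49). In ALSCs 3 rose, Fgf8 (1.40), Lefty2 (1.33) and Tdgf1 (0.75), and Fgf4 fell (-0.66), where 3.54% of all genes rose and 3.50% fell. With the replicate block Fgf8 lost its call (edgeR adjusted p = 0.0540), and 6 were higher and 1 lower, as were 11.1% of all genes in each direction. Without library 1 the counts were 9 and 2, where 12.0% of all genes were higher and 13.4% lower.

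Of 16 other genes of the anterior streak, node and definitive endoderm, 13 were tested. In ABSCs against AFSCs 5 of them fell and 0 rose (median -0.55), where 4.0% of all genes fell and 3.98% rose. Without library 1, 8 were lower and 0 higher, beside the 13.9% and 14.5% of all genes given above. Sox17, a factor of definitive and primitive endoderm, fell from 1.76 ± 1.02 CPM to 0.121 ± 0.132 CPM (log2 fold change -3.82, edgeR adjusted p = 0.00634). Foxa1, the close relative of Foxa2, fell from 2.95 ± 1.24 CPM to 0.273 ± 0.136 CPM (-3.41, edgeR adjusted p = 0.00288). The WNT receptor gene Fzd8 fell by 0.90 and the hormone precursor gene Trh, known from early definitive endoderm, by 0.55. Otx2, a head organizer and epiblast factor, fell by 0.34 from 196 ± 10.1 CPM. In ALSCs against AFSCs 0 of these 13 were called by edgeR at an adjusted p of 0.05 (3.54% of all genes were higher), 0 by limma-voom and 1 by DESeq2, as higher. At an unadjusted p of 0.05 edgeR had 4 higher and 1 lower. With the replicate block 5 were higher (11.1% of all genes) and without library 1, 8 were (12.0%). In ABSCs against ALSCs 9 were lower and 0 higher (median -1.16), where 5.56% of all genes were lower and 5.41% higher. Sox17 stood at -4.76, Gata6 at -2.74 and Gata4 at -2.66. The notochord gene Noto had 0 counts in all 9 libraries.

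Of 20 other genes of the posterior streak and nascent mesoderm, 13 were tested. In ABSCs against AFSCs 3 rose and 1 fell (median 0.28), where 3.98% of all genes rose and 4.0% fell. Without library 1, 7 of 14 were higher and 1 lower, where 14.5% and 13.9% of all genes were. Hand1, a bHLH factor of extraembryonic mesoderm and trophoblast, rose by 9.75 to 213 ± 28.7 CPM. Cdx2, the relative of Cdx1 and also a trophoblast factor, rose from 0.125 ± 0.118 CPM to 4.44 ± 3.13 CPM (5.04, edgeR adjusted p = 0.00839), and Sp8 rose by 2.84. The size of the Cdx2 change rests on 8 counts in AFSCs (260 in ABSCs), and limma-voom did not call it. Lef1, a mediator and target of WNT signals, fell in ABSCs (-1.19) and in ALSCs (-1.40). In ALSCs Hand1 (3.08) and Aplnr (2.43) rose. The presomitic mesoderm gene Msgn1 had 0 counts in all libraries, and Mesp2 had 2. Over the whole list, mean levels in ABSCs ran from 0 CPM for Mesp2 and Msgn1 to 213 CPM for Hand1, with the WNT target Axin2 at 69.4 CPM, Snai1 at 4.99 CPM and Kdr at 1.91 CPM.

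**Figure D5:**
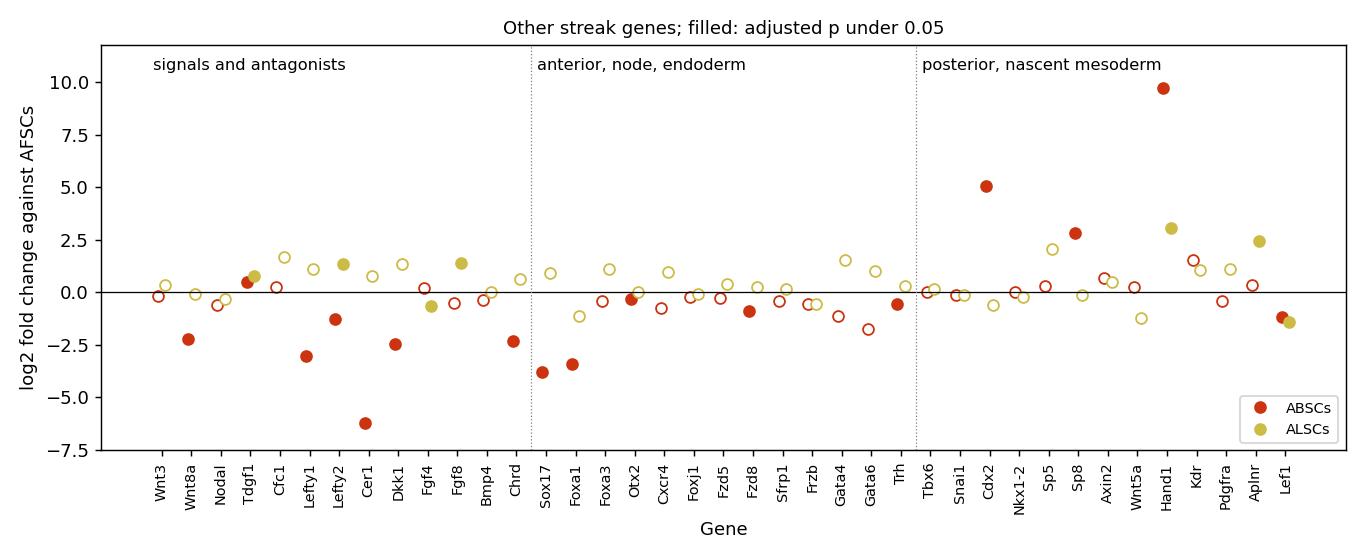
Log2 fold change against AFSCs (vertical axis) of the other streak genes tested, for ABSCs and ALSCs, in 3 blocks: signals and antagonists, anterior genes, and posterior genes; filled points passed an adjusted p of 0.05. In ABSCs the called anterior genes all lie below 0 (5 of 13, where 4.0% of all genes fell). Hand1 (9.75) and Cdx2 (5.04, with 8 counts in AFSCs) lie highest among the posterior genes there.

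Of the 14 closest family members of the streak factors, 5 were tested. Beside Cdx2, Foxa1 and Otx2, given above, the T-box gene Tbx6 stood at 0.852 to 0.939 CPM in the 3 group means and was not called in any comparison, and Foxa3 was lower in ABSCs than in ALSCs (-1.53, edgeR adjusted p = 0.0382). Evx2, the paralog of Evx1, had 0 counts in all 9 libraries. Tbx3 had 9 counts in AFSCs, 8 in ALSCs and 108 in ABSCs and did not pass the filter.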

How the data were processed

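Poly-A RNA of 9 libraries was sequenced as read pairs. HISAT2 2.0.5 and featureCounts 1.5.0-p3 are the tools listed per the submitters' processing notes, and the deposited values are whole-number counts per gene. The notes name mm9, but 98.33% of the Ensembl IDs shared with GENCODE M21 have its GRCm38 coordinates, which are used here. The strand setting of the counting is not given in the sources used here. Of the table's rows, 346 without an Ensembl ID (0.208% to 0.227% of the counts) were left out.

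Counts were analysed with edgeR 4.0.16 in R 4.3.3. Genes were kept by filterByExpr (minimum count 10, minimum total 15), libraries were scaled by TMM (factors 0.963 to 1.06), and all 9 libraries entered 1 robust quasi-likelihood fit of group means with 6 residual degrees of freedom. Tests were 2-sided, with Benjamini-Hochberg adjustment over 16178 genes and a threshold of 0.05. "Rose" and "fell" mean that this threshold was passed. CPM are counts over all Ensembl genes scaled by library size and TMM factor (the cpm function of edgeR). SE is the absolute log2 change over the square root of F. DESeq2 1.42.0 and limma-voom (limma 3.58.1), other scalings and filters, and libraries left out were alternatives. For the likeness of profiles, 0.5 was added to CPM before taking log2.

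Libraries with the same number deviated together from their group means (correlations 0.249 to 0.616 in 9 pairs, against -0.497 to 0.332 in 18 pairs of different numbers), so the number was used as a block in an alternative fit. The members, the lists, the naming rule (all members, the genes most like each, and of each list up to 4 called genes with the largest changes at 1 CPM or more in a group) and the tests were chosen with earlier results of these data known. Wnt8a, Nodal, Tbx3, Tbx6, Axin2, Snai1, Kdr and genes at or near 0 counts were named beside that rule, after their values were seen.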

Additional observations from a re-analysis of the deposited data

Results flagged for a closer look

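For 3 members an interaction of cell type with library 1 passed (edgeR quasi-likelihood test, adjusted over all genes, of which 8.65% passed). The test was chosen after the values were seen and has 1 library 1 per cell type, so it describes these libraries and does not show a difference between the cell types. For Eomes (adjusted p = 2.9e-08) library 1 was at 0.549 of the mean of the others in AFSCs, 0.324 in ALSCs and 0.240 in ABSCs. For T (edgeR adjusted p = 1.82e-08) it was at 0.898, 0.976 and 0.474 in the same order. For Evx1 (edgeR adjusted p = 0.00339) it was at 0.743, 1.41 and 0.408, with levels near 1 CPM in AFSCs and ALSCs. The spread in that fit comes from libraries 2 and 3 alone, with 3 residual degrees of freedom among the libraries.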

How the results depend on the processing

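The calls of Evx1, Foxa2, Gsc and Lhx1 in ABSCs against AFSCs and against ALSCs held in all 19 alternatives each, as did that of Mixl1 against ALSCs. The number of members called in ABSCs against AFSCs was 4 to 6 with 1 library left out (5 in the main analysis), in ABSCs against ALSCs 5 in each case, and for any difference 5 to 6 (6). In ALSCs against AFSCs, 2 in the main analysis, it was 0 to 2 with 1 library left out, 1 without a filter, 3 with the replicate block and 4 without library 1 of every group. In that last setting T in ABSCs against ALSCs reversed to 0.16, and Evx1 in library 1 against the others reversed to 0.056 without ABSCs. Over the whole table, the replicate block called 3132 genes in ABSCs against AFSCs (1291 without it), 3590 in ALSCs against AFSCs (1139), 4605 in ABSCs against ALSCs (1775) and 5992 for any difference (2395). The block moved the calls of T, Mixl1 and Lhx1 in ALSCs against AFSCs, given above, and no other member's call in these 3 comparisons; for any difference 5 members were called with it. Without library 1 of every group these counts were 4622, 4122, 5225 and 7121, and with 1 library left out 667 to 1723, 345 to 1522, 846 to 2337 and 1395 to 3048. With only the 2 groups in the fit, ABSCs against ALSCs gave 1041. The library 1 comparison gave 3688 genes without ALSCs and 2984 without ABSCs (5608 with all). Library size as the only scaling put 666 of 1111 calls higher in ALSCs against AFSCs (573 of 1139 with TMM) and 616 of 1748 in ABSCs against ALSCs (875 of 1775). Of the 24 most alike genes, 1 was shared with Spearman's rho and 10 after removal of number means. The causes of these changes were not tested. Depth limits what can be said of Mesp1 and Cdx1.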
